A study of Equus asinus with 3 samples.

Results

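Heat shock proteins and J proteins are the chaperones that fold, refold and sort other proteins. All features whose symbol starts with DNAJ, HSPA, HSPB, HSPH, HSP90, HSPD or HSPE were taken from 3 single-cell RNA libraries of the donkey (Equus asinus), which gave 71 of the 34267 features listed. There was 1 library from testis, 1 from the head of the epididymis (caput) and 1 from its body (corpus). The series names 3 mature males as donors of tissue, without saying which of them gave which library. Per the labels' protocols, all 3 tissues waited in storage solution for as long as 48 h and were then digested with collagenase IV and DNase I for 15 min at 37 °C before the cells were captured in droplets. The labels name the cells of testis as germ cells and those of both epididymal libraries as somatic cells, with no breed, age or sort.

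Chaperones of the Hsp70 family bind unfolded stretches of protein and let go of them as they split ATP. J proteins (the DNAJ genes) hand over the substrate and start that step, and Hsp110 proteins (HSPH1, HSPA4 and HSPA4L) reset the cycle by exchanging the nucleotide. Hsp90 proteins finish the folding of selected clients, and small heat shock proteins (HSPB genes) hold unfolded protein without ATP. The testis is known for germ-line forms of several of these families, and secretory epithelium such as that of the epididymis relies on the forms that work in the endoplasmic reticulum. The 71 features were 4 J proteins of type A, 13 of type B and 28 of type C, 9 Hsp70 and 3 Hsp110 proteins, 3 Hsp90 proteins, the Hsp60 protein HSPD1, 7 small heat shock proteins, and 3 genes that share the name but are not chaperones of these families (HSPB11, HSPBP1 and HSPBAP1). HSPB7 was not listed in corpus and was taken as 0 there. HSPA1B, a stress-inducible Hsp70, is listed in these files under a locus identifier, so the rule by name did not take it. It is described beside the members, with 29 UMIs in testis, 39 in caput and 39 in corpus. HSPE1, HSPA1A and HSPA1L were not among the feature symbols.

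A unique molecular identifier (UMI) marks 1 captured transcript molecule. Levels are UMIs of a gene per 1000000 UMIs of a class of cells (CPM), summed over the cells, and were compared for 1 gene between classes. They are not scaled for transcript length. After filters 8528 cells were kept in testis, 9478 in caput and 9609 in corpus, with a median of 4697.5, 1145 and 371 UMIs per cell. A doublet caller marked 82 barcodes in testis and 0 in both epididymal libraries, where it did not work and doublets remain. Barcodes are serial numbers in these files, so barcodes shared between libraries could not be counted. Cells were clustered without the members and named from marker genes as germ-like (7970 cells in testis, 207 in caput), luminal epithelial-like (2542 in caput, 148 in corpus), fibroblast-like (724 and 3185), macrophage-like (425 and 647) and T or NK-like (880 and 934). The germ-like cells of the caput go against its label of somatic cells, and testis clusters 8, 10 and 11 (282, 102 and 95 cells), with markers of leukocytes or stroma beside germ markers, go against the label of germ cells. These and cluster 12, with 54 cells that mixed markers of elongating spermatids and spermatocytes, entered no comparison of classes. Another 4578 caput and 4695 corpus barcodes, led by very long genes, stayed unnamed.

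With 1 library per tissue there is no biological replicate, and no p-value is given. A ratio of 2 levels is printed with its exact 95% interval, which covers counting error only. A gene was called higher where that whole interval lay beyond 2-fold and the higher side had at least 50 UMIs. Member counts after division by a median ratio, or under other clusters, describe how the calls depend on the processing. Where no share of all features stands beside such a count, it is no result about the members.

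Members took 1.32% of all UMIs in testis, 0.614% in caput and 0.459% in corpus. Within the caput the share was 1.26% in germ-like cells and 0.903% in luminal cells. It was 0.829% in macrophage-like, 0.779% in T or NK-like and 0.563% in fibroblast-like cells and 0.29% in the unnamed barcodes. In corpus the 148 luminal cells had 1.32%, the macrophage-like cells 0.92%, the T or NK-like cells 0.866%, the fibroblast-like cells 0.506% and the unnamed barcodes 0.200%. Fibroblast-like cells thus had the lowest share of the named classes in both epididymal libraries. Of the 71 members, 65 had at least 50 UMIs in testis, 66 in caput and 53 in corpus. The small heat shock proteins HSPB2, HSPB3 and HSPB7 stayed under 20 UMIs in each library.

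Along spermatogenesis, 9 germ-like clusters of the testis were set in order by the balance of spermatocyte and spermatid markers, from late spermatocyte-like clusters 0 and 5 through unnamed clusters 1, 2 and 6 to clusters 4, 3 and 7 and the elongating cluster 9. Clusters 4, 3 and 7 are called round to early elongating spermatid-like, since markers of elongating spermatids already led clusters 3 and 7. The members' share of UMIs was 1.46% in cluster 0, 1.32% in cluster 6, 0.984% in cluster 7 and 1.04% in cluster 9. Single members moved in opposite directions beneath that total. Of 65 members with at least 50 UMIs in germ-like cells, 24 were highest in one of the first 3 clusters and 14 in the last, while 37 had their lowest level in the last. In the step from late spermatocyte-like to round to early elongating spermatid-like cells, 10 of 63 members tested were higher in spermatids, against 33.4% of all features, and 10 were lower, against 14.2% of all features. The share of members higher in spermatids was thus below that of all features. The median log2 ratio was -0.05 over these members and 0.21 over all features tested. Well-counted genes had a median log2 ratio of -0.22, and dividing by it gave 11 members higher and 5 lower.

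**Figure D1:**
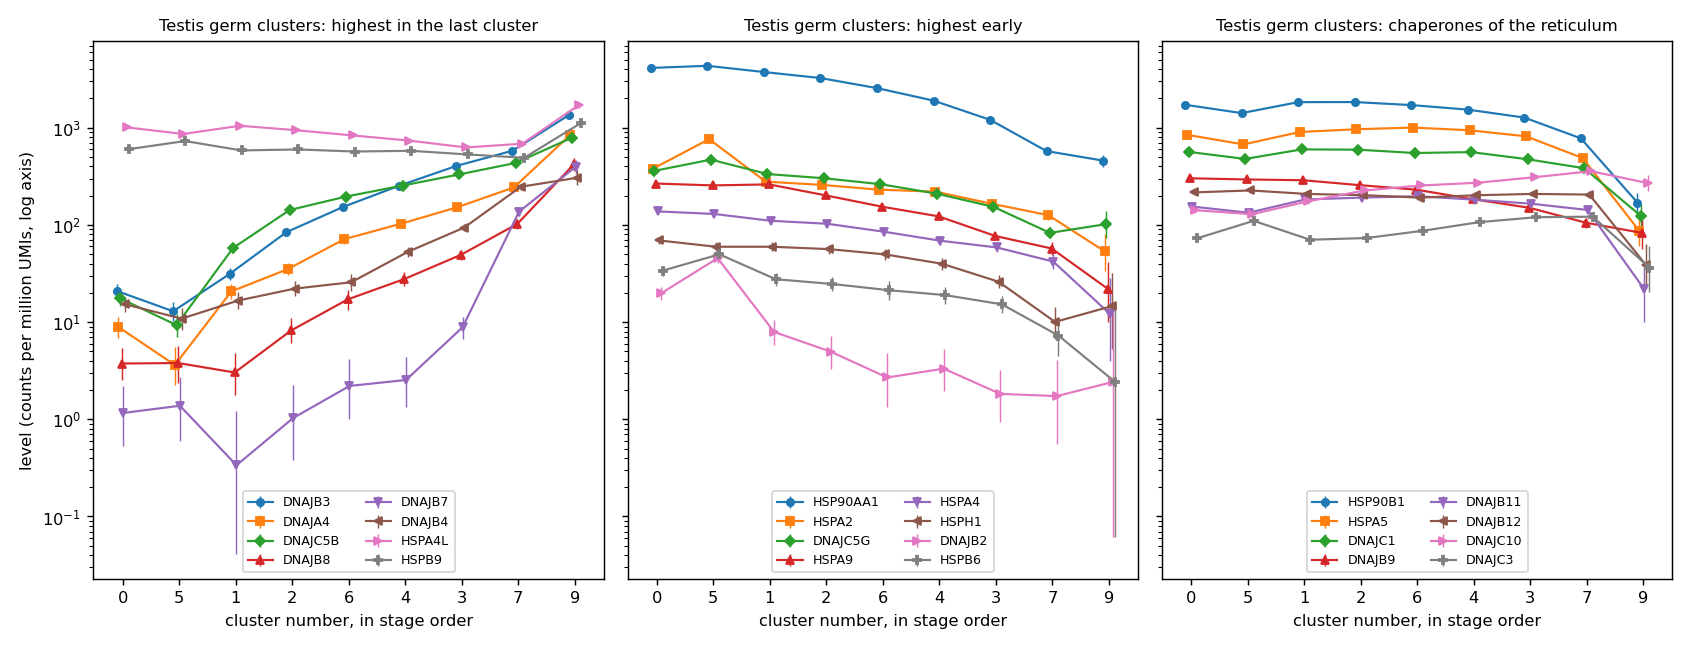
Level of 24 members in the 9 germ-like testis clusters in stage order (x axis, cluster number), in CPM on a log axis with exact 95% Poisson intervals; each line is 1 gene. In the left panel DNAJB7 goes from 0.337 CPM in cluster 1 to 396 CPM in cluster 9, in the middle panel HSP90AA1 goes from 4332 CPM in cluster 5 to 459 CPM, and in the right panel HSP90B1 holds between 1413 and 1836 CPM through cluster 4 and is at 169.8 CPM in cluster 9.

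Of the 10 members higher in spermatids 8 were J proteins, which were 43 of the 63 members tested. DNAJB3, a type B J protein known from mouse sperm, was at 20.9 CPM in cluster 0, 12.9 in cluster 5, 31.3 in cluster 1, 83.9 in cluster 2, 152 in cluster 6, 253 in cluster 4, 402 in cluster 3, 579 in cluster 7 and 1344 in cluster 9. After the dip between the 2 spermatocyte-like clusters its level was above that of the cluster before at each of the 7 further steps. It was 22-fold (95% interval 19.3 to 25.2) higher in round to early elongating spermatid-like than in late spermatocyte-like cells. DNAJC5B, the germ-line form of the cysteine string proteins of secretory vesicles, began its climb early, from 9.3 CPM in cluster 5 to 142 in cluster 2, and reached 791 CPM in cluster 9. Its ratio over the step was 23.1-fold (95% interval 20 to 26.9). DNAJA4, a type A J protein of the cytosol, went from 3.62 CPM in cluster 5 to 243 in cluster 7 and 847 in cluster 9, with a ratio of 23-fold (95% interval 18.6 to 28.7). DNAJB3 and DNAJC5B were therefore already several times higher before the clusters named as spermatids. For DNAJA4 the levels between clusters 5 and 7 are not given here.

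DNAJB7 and DNAJB8, type B J proteins known for expression in testis, came later. DNAJB7 stayed between 0.337 and 2.54 CPM in the first 6 clusters, was at 8.83 CPM in cluster 3, 137 CPM in cluster 7 and 396 CPM in cluster 9. Its onset thus lay between clusters 4 and 7, and its ratio over the step was 25.5-fold (95% interval 15.7 to 44.1). DNAJB8, which is known to hold aggregating proteins in solution, was at 3.03 CPM in cluster 1, 49.2 in cluster 3, 102 in cluster 7 and 419.8 in cluster 9, with a ratio of 13.9-fold (95% interval 10.4 to 18.8). DNAJB4, a stress-inducible cytosolic J protein, went from 10.9 CPM in cluster 5 to 93.9 in cluster 3 and 247 in cluster 7, with a ratio of 8.21-fold (95% interval 7.03 to 9.63). The other 4 members higher in spermatids followed other courses. HSPA12A, a divergent Hsp70, peaked at 59.4 CPM in cluster 4 and was at 21.8 CPM in cluster 9. DNAJC11 of the mitochondrial membranes peaked at 52.8 CPM in cluster 3. HSPA8, the constitutive Hsp70 of the cytosol, was at 16.2 CPM in cluster 5, 107 in cluster 6 and 31.2 in cluster 7, a hump in the middle of the order. DNAJC10, a reductase of disulfide bonds in the reticulum, rose from 129 CPM in cluster 5 to 357 in cluster 7, with a ratio of 2.24-fold (95% interval 2.13 to 2.37).

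The cytosolic Hsp90 genes parted. HSP90AA1, the stress-inducible form that mouse spermatocytes need in meiosis, had the most UMIs of all members in testis. Its level was 4121 CPM in cluster 0, 4332 in cluster 5, 3242 in cluster 2, 1899 in cluster 4, 574 in cluster 7 and 459 in cluster 9. It was 3.18-fold (95% interval 3.13 to 3.23) higher in late spermatocyte-like than in round to early elongating spermatid-like cells. HSP90AB1, the constitutive form, was between 77.5 and 130.1 CPM in the first 8 clusters and was not called over that step. HSPA2, the germ-line Hsp70 that mouse spermatocytes need to finish meiosis, stood at 377 CPM in cluster 0, 763 in cluster 5, 278 in cluster 1, 126 in cluster 7 and 53.4 in cluster 9. Its peak thus fell on 1 spermatocyte-like cluster, and the ratio of late spermatocyte-like to round to early elongating spermatid-like cells was 3.07-fold (95% interval 2.94 to 3.21). DNAJB2, a J protein that carries clients to the proteasome, had the same place of highest level, with 45.5 CPM in cluster 5, 19.8 in cluster 0 and no more than 7.91 CPM in any later cluster of the order. Its ratio was 13.2-fold (95% interval 9.3 to 19.3).

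The other members lower in spermatids fell more evenly. HSPA9, the mitochondrial Hsp70, went from 266 CPM in cluster 0 to 57.1 in cluster 7, 2.94-fold (95% interval 2.75 to 3.13) higher in late spermatocyte-like cells. DNAJC5G, a germ-line relative of DNAJC5B, moved against that relative, from 469 CPM in cluster 5 to 82.8 in cluster 7, with 2.56-fold (95% interval 2.43 to 2.68) more in late spermatocyte-like cells. The small heat shock protein HSPB6 went from 49.8 to 7.27 CPM between the same clusters. The Hsp110 proteins HSPA4 and HSPH1 were 2.28-fold and 2.35-fold higher in late spermatocyte-like cells, and DNAJB5 and HSPBAP1 2.59-fold and 2.55-fold higher. These 4 and HSPB6 lost the call once ratios were divided by the median ratio. By contrast the third Hsp110 protein, HSPA4L, known for a form that abounds in testis, was between 626 and 1047 CPM in the first 8 clusters and at 1713 in cluster 9. HSPB9, a testis small heat shock protein, was likewise between 490.0 and 729 CPM in the first 8 clusters and at 1111 in cluster 9.

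The last step, from round to early elongating to elongating spermatid-like cells, rested on 105 elongating cells with 412132 UMIs. Of 53 members tested, 7 were higher, against 5.13% of all features, and 18 were lower, against 17.1%. The median log2 ratio was -1.31 over these members and -1.25 over all features tested. Called members were a larger share than among all features in both directions, with medians close to each other. Features were not matched to the members by level, and the counts changed with clusters and scaling, as given below. DNAJB7 was at 32 CPM before and 396 CPM after, a ratio of 12.4-fold (95% interval 10.3 to 14.8). DNAJB8 went from 52.2 to 419.8 CPM, a ratio of 8.04-fold (95% interval 6.78 to 9.5). DNAJA4 went from 153 to 847 CPM, a ratio of 5.54-fold (95% interval 4.94 to 6.21). These J proteins were called under every alternative that was tried for this step. DNAJB3 was 3.49-fold (95% interval 3.2 to 3.81) higher, DNAJB4 2.79-fold, HSPA4L 2.53-fold and DNAJC5B 2.44-fold. Well-counted genes shifted by 0.76 in log2 over this step, and relative to them these 4 lost the call and the counts became 3 higher and 30 lower. With coarser clusters (resolution 0.6) the counts were 6 higher and 3 lower, and without the 5% of cells with the highest doublet scores 6 and 6.

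Chaperones of the endoplasmic reticulum, the site where secreted and membrane proteins fold, were mostly not called over the step out of the spermatocyte-like clusters, and 6 of 12 were lower in the elongating cluster, against 17.1% of all features. Over the earlier step 1 of 14 was called higher (DNAJC10) and 0 lower. Over the last step 0 of 12 were higher. At resolution 0.6, where 3.59% of all features were lower, 2 of 11 were called lower (HSPA5 and HSP90B1), so the other 4 lower calls depend on the clusters. HSPA5, the main Hsp70 of the reticulum (BiP), was between 673 and 1003 CPM through cluster 3, 488 in cluster 7 and 87.4 in cluster 9, and was 9.1-fold (95% interval 6.57 to 13) lower over the last step. HSP90B1, the Hsp90 of the reticulum, was 7.45-fold (95% interval 5.89 to 9.56) lower, from 1265 to 169.8 CPM. DNAJB11, a J protein that works with HSPA5, was 7.62-fold (95% interval 4.01 to 16.7) lower, from 166 CPM to 21.8 CPM. DNAJB12, DNAJC1 and DNAJC18, membrane J proteins of the reticulum, were 5.29-fold, 3.93-fold and 5.5-fold lower. DNAJC10 was among those tested and not called, at 305 CPM before and 269 CPM after. DNAJB9, also with no call, had declined at each of the 8 steps from 302 to 82.5 CPM. HSPA13 went the other way, from 6.7 CPM in cluster 3 to 51 CPM in cluster 9, with too few UMIs to be tested.

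Among members of the cytosol, DNAJA1, a type A partner of Hsp70, was between 404 and 580.4 CPM in the first 8 clusters and at 143 in cluster 9. HSP90AB1 was 5.89-fold (95% interval 3.09 to 12.9) lower, from 129 to 21.8 CPM. HSPA14, which assists new chains at the ribosome, had 1 UMI in the elongating cluster and was at 78.1 CPM before it, 32.2-fold (95% interval 5.76 to 1272) lower. Its ribosomal partner DNAJC2 was at 189.5 CPM before and 112 after, with no call. DNAJC27, a small GTPase with a J domain, was 9.92-fold (95% interval 5.67 to 19.2) lower. DNAJB1 and DNAJB6 were at 132 and 369.5 CPM before and 77.6 and 247 CPM after, with no call. Of the 7 mitochondrial members tested, 0 were higher and 2 lower (HSPA9 and DNAJC15), where 5.13% and 17.1% of all features were. DNAJC4 was outside these 7, since its 49 UMIs in the elongating cluster were too few to be tested. Its level was 30.9 CPM before and 119 CPM after, a ratio of 3.85-fold (95% interval 2.81 to 5.18). The chaperonin ring, a separate folding machine built of the CCT proteins, was lower for 8 of its 9 genes and higher for 0. Of 25 other co-chaperones and heat shock factors tested, 2 were higher and 8 lower. At resolution 0.6 the lower calls were 0 of 7 for the mitochondrial members, 0 of 9 for the chaperonin ring and 0 of 25 for the co-chaperones and heat shock factors. HSP90AB1, DNAJA1, HSPA14 and DNAJC27 also lost the call there.

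Germ-like cells in the caput gave a view of the same late forms in another library. They were a cluster of 142 cells of several stages (cluster 9) and a cluster of 65 elongating spermatid-like cells (cluster 11). DNAJB3 was at 86.5 CPM in cluster 9 and 1041 in cluster 11, a ratio of 12-fold (95% interval 8.53 to 17.1). DNAJB8 was at 9.99 and 663 CPM, a ratio of 66.4-fold (95% interval 28.9 to 188), and DNAJA4 at 46.6 and 521 CPM, a ratio of 11.2-fold (95% interval 6.91 to 18.4). These were the 3 of 25 members tested that were called higher in cluster 11, against 7.35% of all features, and 12 were called lower, against 38.4%. The median log2 ratio was -1.93 over the members and -1.89 over all features, so most genes had a negative sign. HSPA4L was at 810.5 and 1868 CPM and HSPB9 at 574 and 959 CPM, in the same direction as in testis and with no call. HSP90AA1 was 8.71-fold (95% interval 6.24 to 12.5) lower in cluster 11 and HSP90B1 5.72-fold (95% interval 3.96 to 8.59) lower. HSPA2 was 7.34-fold (95% interval 3.33 to 20.2) lower. Of the 25 members that could be set beside the last testis step, 24 had the same sign in both libraries, 3 were called higher in both, 11 lower in both and 0 in opposite directions. Of all 2260 features tested in both, 93.5% had the same sign, 5.97% were called higher in both and 25.0% lower in both, so the shared sign is near that of other features. Well-counted genes had a median log2 ratio of 1.33 here, and dividing by it gave 3 higher and 19 lower. The contrasts are not the same, since cluster 9 mixes stages, and cluster 11 had 65 UMIs of DNAJB8 and 51 of DNAJA4.

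**Figure D2:**
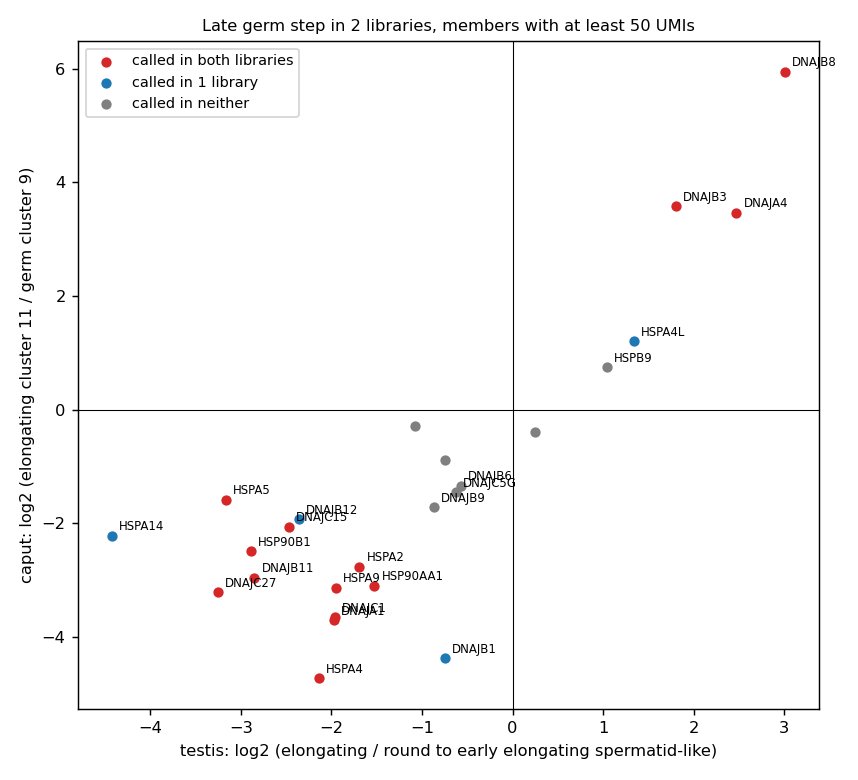
Each point is 1 of the 25 members whose higher side reached 50 UMIs in both contrasts, with the log2 ratio of the last testis step on the x axis and the log2 ratio of caput cluster 11 to cluster 9 on the y axis; colour gives where it was called, and 0.5 UMIs were added to both sides so that HSPA4 and DNAJB1, at 0 UMIs in cluster 11, could be drawn. DNAJB8, DNAJB3 and DNAJA4 stand at the upper right and 11 members called in both stand at the lower left.

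Set against the luminal epithelial-like cells of the same caput library, the germ-like cells had 18 of 49 members higher, against 18.2% of all features, and 7 lower, against 17.7%. The median log2 ratio was -0.18 over the members and -0.81 over all features tested. All 7 tested members of the list known from the germ line were higher, but that list was chosen for such expression. DNAJB3, DNAJC5G and DNAJB8, with 34, 37 and 8 UMIs in luminal cells, entered only through the germ-like cells. The count is therefore a description and no test. HSPB9 was at 628 CPM in germ-like and 15.6 CPM in luminal cells, a ratio of 40.3-fold (95% interval 30.6 to 54.1). HSPA4L was 31.1-fold (95% interval 25.4 to 38.2) higher, from 30.9 to 959 CPM. DNAJC5G was 26.3-fold (95% interval 18.4 to 38.6) higher and DNAJC21, a factor of ribosome assembly, 10.8-fold (95% interval 8.48 to 14) higher. In the other direction HSPB1, the general small heat shock protein, was 7.86-fold (95% interval 6.65 to 9.36) higher in luminal cells, at 1574 against 200.3 CPM. DNAJC10, HSP90AB1 and HSPA8 were 3.43-fold, 3.35-fold and 2.8-fold higher there. HSPD1, the mitochondrial Hsp60, had 2 UMIs in germ-like cells and 38.8 CPM in luminal cells, a ratio of 13.6-fold (95% interval 3.68 to 113). Free RNA in the droplets was not removed, and HSPB9 was found at a like level of 12 to 17.3 CPM in all 4 somatic classes of the caput. Well-counted genes had a median log2 ratio of 1.35, and dividing by it changed the counts to 8 higher and 23 lower. The share of all features after that division is not given. The germ-line members HSPB9, HSPA4L, DNAJB8, DNAJB3 and DNAJC5G were among those still called higher.

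In the epididymis the luminal epithelial-like cells, which secrete the proteins that bathe maturing sperm, had the highest summed level of the reticulum members among the 4 somatic classes, 4210.5 CPM against 1872 to 2108 CPM in caput and 6254 CPM against 1000.2 to 1464 CPM in corpus. In corpus HSP90B1 was at 2384 CPM in luminal, 299.8 in T or NK-like, 445 in macrophage-like and 491 in fibroblast-like cells. In caput it was at 1444, 711, 788 and 801 CPM in the same order. HSPA5 was 7.01-fold (95% interval 5.96 to 8.22) higher in luminal than in fibroblast-like cells of the corpus, at 2021 against 288 CPM, and 2.55-fold (95% interval 2.32 to 2.82) higher in the caput, at 1073 against 420.0 CPM. Both libraries thus had HSPA5 higher in the epithelium. DNAJC10 was 12.1-fold (95% interval 9.15 to 15.9) higher in luminal cells of the corpus and 3.95-fold (95% interval 3.48 to 4.49) in those of the caput. DNAJB9, which hands misfolded reticulum proteins to degradation, was 3.2-fold (95% interval 2.34 to 4.46) higher in the caput, with too few UMIs for a call in the corpus. HSPB1 was the only called gene outside the reticulum on the higher side, 6.46-fold (95% interval 5.73 to 7.28) in the corpus and 2.88-fold (95% interval 2.65 to 3.14) in the caput.

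In all, 4 of 40 members were higher in luminal than fibroblast-like cells of the caput, against 6.72% of all features, and 1 was lower (HSPA12B), against 9.78%. In the corpus 4 of 21 were higher, against 2.88%, and 1 was lower (HSPA12B), against 6.68%. The reticulum list gave 3 of 11 higher in the caput and 3 of 7 in the corpus, and 0 lower in both. Over these tested reticulum members the median log2 ratio was 0.74 in the caput and -0.48 in the corpus, beside 0.01 and -0.86 over all features. In the corpus the median goes against the calls, since a gene higher in the luminal class entered only with 50 UMIs there, which are 412.5 CPM. Within the caput the 4 luminal clusters differed. HSP90B1 was at 742 CPM in cluster 2 and 1885 to 1967 CPM in clusters 5, 6 and 7. DNAJC3, which guards the reticulum during stress, was at 152 CPM in cluster 2 and 295 to 373 CPM in the other 3, and HSPA5 was at 649 against 1292 to 1429 CPM. HSPB1 had another order, with 791 CPM in cluster 6, which the lipocalin LCN8 and the cystatin CST11 mark, and 1565 to 1925 CPM in clusters 2, 5 and 7. Well-counted genes had a median log2 ratio of 1.21 in the corpus, and dividing by it left 3 higher and 4 lower there, with HSP90B1 no longer called. In the caput that median was -0.45 and the counts became 6 higher and 1 lower.

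**Figure D3:**
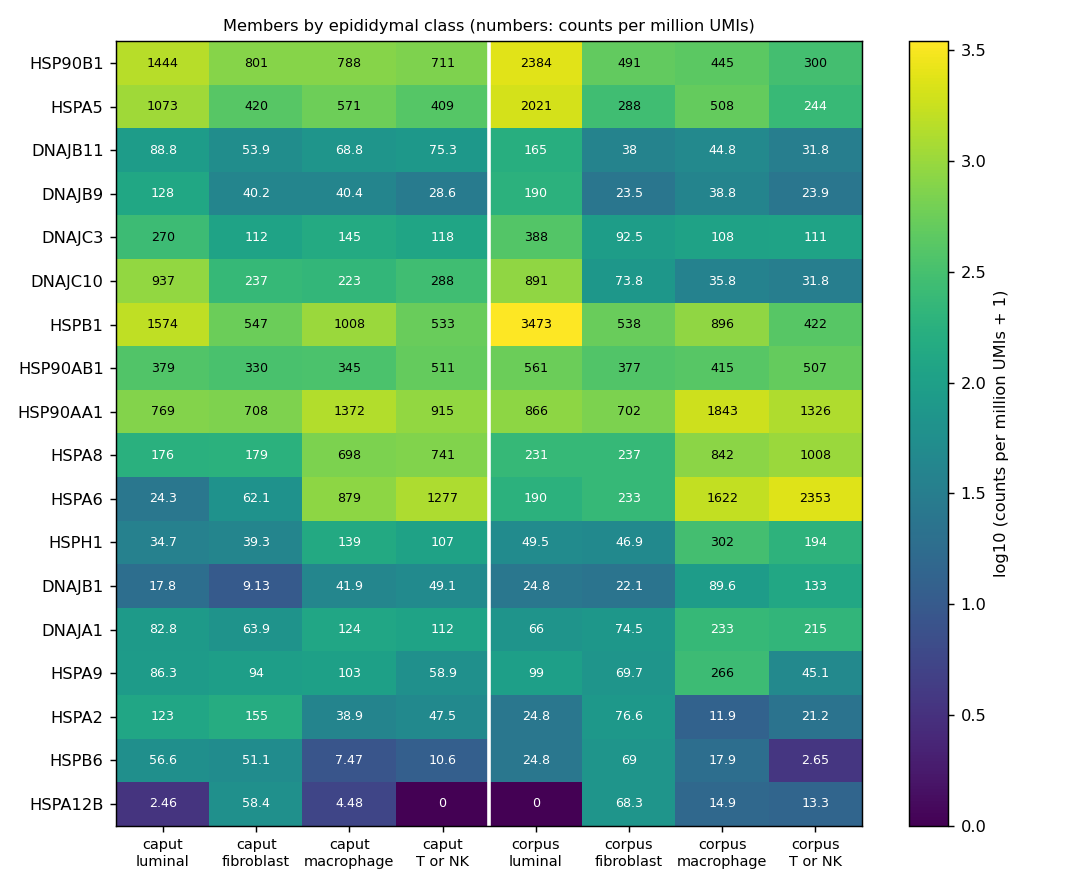
Level of 18 members in the 4 named somatic classes of caput (left) and corpus (right); colour is log10 of CPM plus 1 and the printed number is CPM. The reticulum chaperones in the upper rows are highest in the luminal columns, HSPA8, HSPA6 and HSPH1 in the macrophage and T or NK columns, and HSPA12B in the fibroblast columns.

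In leukocytes of the epididymis HSPA6, HSPA8 and, in part, HSPH1 and DNAJB1 were higher than in fibroblast-like cells. HSPA6, an Hsp70 that is nearly silent in unstressed cells and induced by heat, was at 1277 CPM in T or NK-like, 879 in macrophage-like, 62.1 in fibroblast-like and 24.3 in luminal cells of the caput. In the corpus it was at 2353, 1622, 233 and 189.8 CPM in the same order. The order of classes T or NK-like, macrophage-like, fibroblast-like, luminal was the same in both libraries, although the intervals of the fibroblast-like and luminal cells of the corpus overlap. Against fibroblast-like cells the ratio for T or NK-like cells was 20.6-fold (95% interval 16.1 to 26.6) in caput and 10.1-fold (95% interval 8.89 to 11.5) in corpus. For macrophage-like cells it was 14.2-fold (95% interval 11 to 18.5) in caput and 6.95-fold (95% interval 6.06 to 7.99) in corpus. HSPA8 went with it, 4.14-fold and 4.25-fold higher in T or NK-like cells of caput and corpus and 3.9-fold and 3.55-fold higher in macrophage-like cells. No source used here says how reads shared by HSPA6 and related genes such as HSPA1B were counted, so the level of HSPA6 is uncertain. HSPA1B was at 37.1 CPM in T or NK-like and 11 CPM in fibroblast-like cells of the corpus.

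HSPH1, which recharges Hsp70 under stress, was 3.54-fold (95% interval 2.44 to 5.21) higher in macrophage-like than in fibroblast-like cells of the caput and 6.43-fold (95% interval 4.68 to 8.88) higher in the corpus. In T or NK-like cells of the corpus it was 4.13-fold (95% interval 2.93 to 5.83) higher. DNAJB1, the inducible J protein, was 5.38-fold (95% interval 2.73 to 11.8) higher in T or NK-like cells of the caput and 6.01-fold (95% interval 3.78 to 9.68) of the corpus. HSP90AA1 was at 1843 CPM in macrophage-like and 702 in fibroblast-like cells of the corpus, 2.63-fold (95% interval 2.37 to 2.91) higher, and at 1372 and 708 CPM in caput, with no call. DNAJA1 and the mitochondrial HSPA9 were 3.13-fold and 3.81-fold higher in macrophage-like cells of the corpus. Of the list of inducible members, which also holds the constitutive HSPA8, 3 of 6 were higher in macrophage-like and 3 of 7 in T or NK-like cells of the caput, 5 of 7 and 5 of 8 in those of the corpus, and 0 were lower in any of these. Without HSPA8, a count added after the results were seen, they were 2 of 5 and 2 of 6 in the caput and 4 of 6 and 4 of 7 in the corpus. The median log2 ratio of the tested list was 1.39 and 1.44 in the caput and 1.65 and 1.79 in the corpus (0.96, 1.12, 1.52 and 1.53 without HSPA8), where that of all features was -0.32, 0.04, -0.45 and -0.30 in the same order. These medians hold for tested members only. In caput T or NK-like cells DNAJB1 and HSPH1, with 10 and 43 UMIs in fibroblast-like cells, entered only through the leukocytes. So did HSPH1 in caput macrophage-like cells, with 93 UMIs against 43, and DNAJB1 in corpus T or NK-like cells, with 50 against 32. The counts and medians of this list are therefore descriptions and no test. DNAJB4, HSPD1, HSPA4L and HSPB8 were not tested in caput T or NK-like cells, at log2 ratios of 0.18, 0.50, 0.07 and -1.94. Over all members, 3 of 27 were higher and 3 lower in macrophage-like cells of the caput, against 6.9% and 9.74% of all features, and 3 of 33 and 3 in T or NK-like cells, against 6.04% and 8.61%. In the corpus 6 of 28 were higher and 1 lower in macrophage-like cells, against 5.28% and 7.97%, and 5 of 25 and 2 in T or NK-like cells, against 3.29% and 10.5%. Well-counted genes had a median log2 ratio of 0.47 in both corpus comparisons, and dividing by it gave 4 higher and 3 lower in each.

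Immediate-early genes are the FOS and JUN kind that cells switch on within minutes of a stimulus. Summed, they were also higher in the leukocyte classes than in the others of the same library. Their sum was 517 CPM in luminal, 3421 in fibroblast-like, 5647 in T or NK-like and 9639.7 in macrophage-like cells of the caput. In the corpus it was 2937, 5505, 8638 and 17775 CPM. The order was not that of HSPA6, since the sum was highest in macrophage-like and HSPA6 in T or NK-like cells. In each of these 4 classes both the sum and HSPA6 were higher in the corpus. Single genes of the list went in both directions. In the corpus FOS was at 2958 CPM in T or NK-like and 1644 in fibroblast-like cells. EGR1, DUSP1 and JUND were lower in T or NK-like cells, at 337, 180 and 302 CPM against 415, 280 and 379. FOS was among the 10 leading genes of both leukocyte clusters of the caput, and HSPA6 among those of the T or NK-like cluster, although members were left out of the clustering. In the testis the sum was 66.5 CPM in germ-like cells, where HSPA6 was at 16.5 CPM. The part of tissue handling in the levels of HSPA6 and its companions was not tested.

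**Figure D4:**
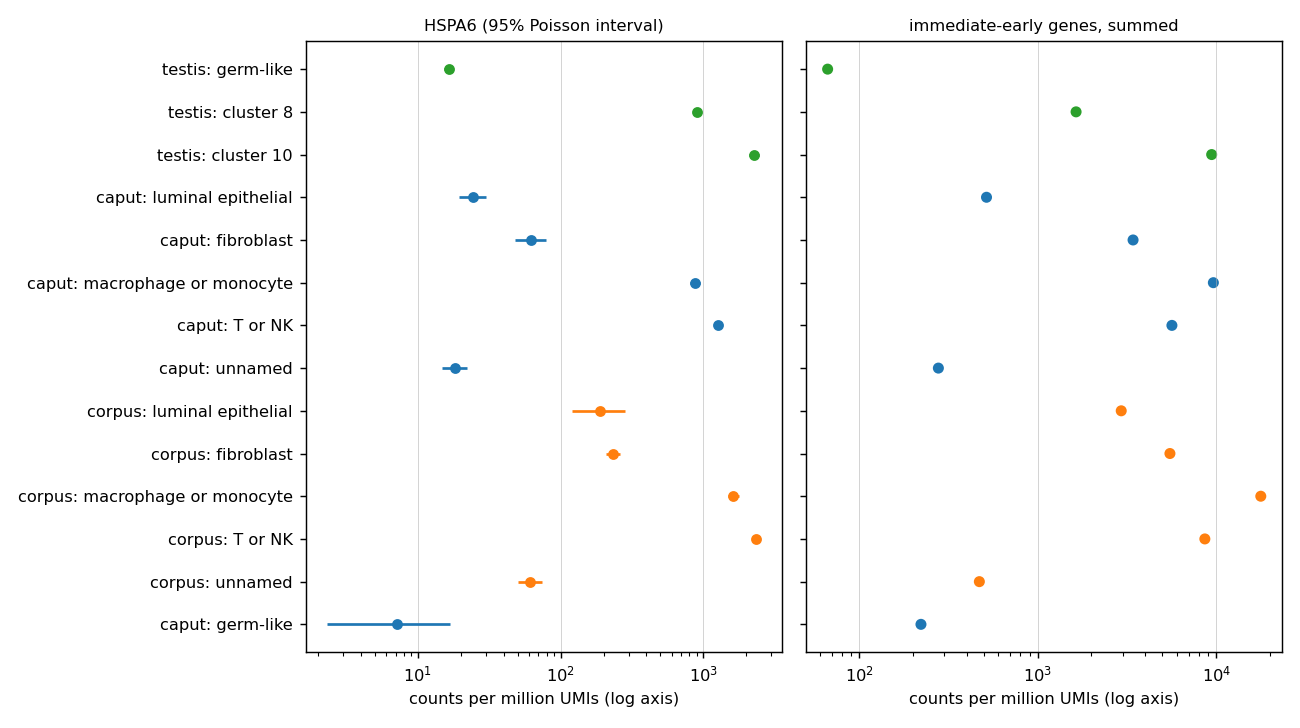
Level of HSPA6 with its exact 95% Poisson interval (left) and the summed level of 28 immediate-early genes (right) by class and library, both in CPM on log axes; green is testis, blue caput and orange corpus. T or NK-like and macrophage-like classes and testis clusters 8 and 10 lie furthest right in the left panel, and germ-like cells lie lowest in both.

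In the caput, 1 member was called for fibroblast-like cells over every other named somatic class, and in the corpus 0 were. HSPA12B, a divergent Hsp70 known from endothelial cells, was at 58.4 CPM in fibroblast-like cells of the caput, 4.48 in macrophage-like, 2.46 in luminal cells and at 0 in T or NK-like cells, where 3 UMIs would be 2.46 CPM. The ratio to luminal cells was 23.8-fold (95% interval 11.8 to 54.3). In the corpus it was at 68.3 CPM in fibroblast-like, 13.3 in T or NK-like and 14.9 in macrophage-like cells and at 0 in luminal cells, where 3 UMIs would be 24.8 CPM. The fibroblast-like classes had 11 of 13 endothelial markers at a sum of 204 CPM in caput, with CLDN5 and CCL21 at 0, and 12 of 13 at 251 CPM in corpus, with CCL21 at 0. The sums in the other 3 named classes were 173 to 227 CPM in caput and 157 to 822 CPM in corpus. No cluster was named endothelial, and the part of endothelial cells in these HSPA12B levels was not tested. HSPA2 was at 155 CPM in fibroblast-like, 123 in luminal, 47.5 in T or NK-like and 38.9 in macrophage-like cells of the caput, and was 3.99-fold (95% interval 2.63 to 6.29) lower in macrophage-like than in fibroblast-like cells. HSPB6, known from smooth muscle, was 4.81-fold (95% interval 2.6 to 9.58) lower in T or NK-like cells of the caput and 6.84-fold lower in macrophage-like cells, and was at 56.6 CPM in luminal against 51.1 CPM in fibroblast-like cells, with no call.

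By the leading class in each library, most members tested were not called for 1 class. Of 42 members tested in the caput, 3 were called higher in their leading class than in the next, against 12.3% of all features, a smaller share. These were HSPA12B in fibroblast-like and DNAJC10 and DNAJB9 in luminal cells. Of 19 in the corpus, 4 were called, against 15.3%, a larger share that rests on these 4 genes. All were in luminal cells (DNAJC10, HSP90B1, HSPA5 and HSPB1). Luminal cells led for 20 of the 42 in the caput and 5 of the 19 in the corpus, where 33.4% and 5.59% of all features tested were led by them.

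Between caput and corpus, most members tested within a class were not called. In luminal cells 1 of 29 was higher in the caput, against 1.87% of all features, and 0 were lower, against 1.09%. It was DNAJC24, a factor of diphthamide synthesis, at 64.5 CPM in caput and at 0 in the 121211 UMIs of the corpus cells, at least 2.6-fold higher against 3 UMIs in the corpus. The call was lost in 3 alternatives, among them thinning the caput to the corpus depth. A member higher in corpus luminal cells was tested only with at least 50 UMIs there, so the 0 lower covers well-counted members only. HSPA6, with 23 UMIs in corpus and 89 in caput luminal cells, was not tested. Its level was 189.8 CPM in corpus and 24.3 CPM in caput luminal cells, 7.8-fold (95% interval 4.71 to 12.5) higher in corpus. In fibroblast-like cells 1 of 35 was higher in caput (DNAJC10, 3.22-fold (95% interval 2.56 to 4.07)), against 2.09%, and 1 lower (HSPA6, 3.76-fold (95% interval 2.89 to 4.95) higher in corpus), against 0.297%. In macrophage-like cells 1 of 19 was higher in caput, against 5.18%, and 0 lower, against 2.47%. In T or NK-like cells 1 of 24 was higher, against 3.86%, and 0 lower, against 0.756%. Both were DNAJC10, with 9.05-fold (95% interval 5.11 to 17.7) in the T or NK-like and 6.21-fold (95% interval 3.45 to 12.3) in the macrophage-like class, while luminal cells held it at 937 CPM in caput and 891 in corpus. Beside these the 26 luminal marker genes summed to 3862 to 4973 CPM in the 3 non-luminal classes of the caput and 372 to 456 CPM in those of the corpus. The caput sums had 25 or 26 of 26 markers, with SPINT4 at 0 in macrophage-like and DEFB126 in T or NK-like cells. The corpus sums had 18 to 22 of 26, with LCN10 and DEFB128 among those at 0 in fibroblast-like cells and LCN6, LCN8 and LCN9 in the others. Well-counted genes had median log2 ratios of -0.18 in the luminal, -0.12 in the macrophage-like and -0.47 in the T or NK-like class, and dividing by the last gave 3 members higher in caput T or NK-like cells in place of 1. The part of luminal RNA in the DNAJC10 differences was not tested.

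Over whole libraries, where a lower share of a cell type and less RNA per cell cannot be told apart, 9 of 65 members were higher in caput than in corpus, against 7.02% of all features, and 2 lower, against 1.77%. Of the 617 HSPB9 UMIs of the caput, 439 lay in its 207 germ-like cells, as did 71 of 96 for DNAJB8 and 276 of 1153 for HSPA2. HSPB9 was at 46.7 CPM in caput and 0.241 in corpus, where it had 1 UMI, a ratio of 194-fold (95% interval 34.6 to 7657). DNAJB3 had a ratio of 9.1-fold (95% interval 4.72 to 20.1), with DNAJB8, DNAJC5G, HSPA4L and HSPA2 also called. DNAJC10, DNAJB9 and HSP90B1 were 5.51-fold, 3.21-fold and 2.27-fold higher in the caput, which had 2542 luminal cells against 148. HSPA6 and HSPA12B were 2.48-fold and 3.68-fold higher in the corpus. Members had a median log2 ratio of 0.30, all features one of -0.08 and well-counted genes one of -0.21. Over cells with at least 500 genes, 5 members were called in place of 11.

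Testis against caput gave 32 of 68 members higher in testis, against 18.9% of all features, and 15 lower, against 54.2%. The median log2 ratio was 0.81 over the members and -1.69 over all features tested. All 9 tested members of the germ-line list were higher in testis, with HSPB9 at 593 against 46.7 CPM, a ratio of 12.7-fold (95% interval 11.7 to 13.8). That list was chosen for such expression, and DNAJB7, with 18 UMIs in caput, entered only through testis. DNAJB13, which is known from the sperm flagellum, was 8.97-fold (95% interval 7.1 to 11.5) higher and DNAJC5G 10.9-fold (95% interval 9.79 to 12.2) higher. DNAJB1 and DNAJA1, stress-inducible in somatic cells, were 6.74-fold and 6.57-fold higher in testis. In contrast HSPA6, HSPB1, HSPB8 and HSPD1 of the inducible list and the constitutive HSPA8 were higher in caput. HSPB1 was 18.8-fold (95% interval 17.8 to 19.7) higher there, at 713 against 38 CPM. HSPD1 had 42 UMIs in the whole testis library and 317 in the caput, 26.9-fold (95% interval 19.4 to 38) higher in caput. HSPB8, a small heat shock protein that works with autophagy, had 1 UMI in testis and 54 in caput. Well-counted genes had a median log2 ratio of -1.15, and dividing by it gave 42 higher and 7 lower. HSP90AB1, 2.17-fold higher in caput without that division, then changed sign and was close to no difference.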

How the data were processed

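Per the file headers, the deposited files hold UMI counts per gene and barcode written by PISA 0.12, not normalized. Cell Ranger 2.1.1 is named in the submitters' processing notes with no role. No source used here names the aligner or the genome build. The libraries held 47686179 (testis), 13203203 (caput) and 4142512 (corpus) UMIs, which limits precision most in the corpus. Barcodes with at least 200 genes were kept and Scrublet calls removed (scanpy 1.11.5). Clustering used 2000 variable genes without the members, 30 principal components, 15 neighbours and Leiden resolution 1.0. Cluster names came from marker lists, with thresholds and the variable-gene method chosen after the clusters were seen. Counts were summed per class, and ratios of CPM carry exact conditional binomial 95% intervals (scipy 1.17.1), levels exact Poisson ones, all for counting error only. The interval and call rule were tested on simulated Poisson sums for fibroblast-like cells of caput against corpus. Clustering, naming and the other steps were not tested in that way. Members and lists were chosen with earlier results of these data known. Named are up to 12 called members per direction of a comparison, the 10 with most UMIs per library, and members of the gene lists. The comparisons with fibroblast-like cells and between the caput germ clusters, 7 in all, were added after levels had been seen. Alternatives changed the gene minimum, variable genes, resolution, doublets, merged barcodes, UMI minimum, scaling and depth. Protein and promoter sequences are not used here.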

Additional observations from a re-analysis of the deposited data

Results flagged for a closer look

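Testis clusters outside the germ-like cells, which enter no comparison above, held members above the level in germ-like cells. Cluster 8, with 282 cells that carry T or NK and germ markers, had HSPA6 at 902 CPM from 1313 UMIs, 54.7-fold (95% interval 49.9 to 59.9) above the 16.5 CPM of germ-like cells. In cluster 10, with 102 cells of mixed somatic markers, HSPA6 was at 2272 CPM, 138-fold (123 to 154) above germ-like cells. HSPB1 was at 821 CPM there, 25.8-fold (22.1 to 29.99) above their 31.8 CPM. HSPA8 was at 929.8 CPM, 13.4-fold (11.6 to 15.3) above their 69.5 CPM, and HSP90AB1 at 705 CPM, 6.68-fold (5.69 to 7.79) above their 106 CPM. Immediate-early genes summed to 1640.4 CPM in cluster 8, 9431 CPM in cluster 10 and 66.5 CPM in germ-like cells, and their part in these levels was not tested.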

How the results depend on the processing

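Of the alternatives to 191 results for named members, 1303 kept direction and call, 143 kept direction without the call, and 1 reversed: the log2 ratio of testis to caput for HSP90AB1 became 0.034 after dividing by the median ratio. The 25 members called in the elongating step became 9 at resolution 0.6, 12 without the 5% highest doublet scores and 15 at thinned depth. The 11 called between whole caput and corpus became 5 at 500 genes per cell. The 1 called in luminal cells of caput and corpus became 2 with a minimum of 10 UMIs. The 1 called in T or NK-like cells of caput and corpus became 2 with members among the variable genes, with 4000 variable genes, without the highest doublet scores and at thinned depth, and 3 after dividing by the median ratio. At 500 genes per cell no such class was found in the corpus, so there is no value. The 3 called for the leading class in caput became 5 with 4000 variable genes. In the comparisons added after levels were seen, the 15 called between the caput germ clusters became 7 at thinned depth, the 5 of luminal cells against fibroblast-like cells in corpus became 8 with 10 UMIs, the 7 of macrophage-like cells there became 2 at 500 genes and 4 at thinned depth, and the 7 of T or NK-like cells there became 4 at thinned depth. Beyond the fewer UMIs or cells that thinning and the 500-gene minimum leave, the cause was not tested. No paired analysis was possible because each tissue has 1 library. Depth limits the corpus most.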
